A study of Mus musculus with 2 samples.

Results

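Genes of the urea cycle and of amino acid breakdown were compared between 2 pools of mouse liver. The members are 59 listed genes of enzymes, carrier proteins and a regulatory kinase, sorted into 8 groups by the amino acid they act on, and a member was kept where a probe set, the group of short probes that reads 1 transcript, carried its gene symbol alone. This gave 54 members with 86 probe sets, out of 18193 named genes on the array. Gls2, Acmsd, Sds, Sdsl and Amt are not analysed here, and the listed Mut appears under its present symbol Mmut.

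The mice were C57BL/6J, aged 2 months, and all received an adenovirus at 1000000000 plaque-forming units through the tail vein. The virus was an empty vector (Ad-control) or one made to overexpress PDK4 (Ad-PDK4), a kinase that switches off the pyruvate dehydrogenase complex, so both groups carried a viral infection. Livers were taken on day 3, and those of 4 Ad-control mice and of 3 Ad-PDK4 mice were each combined into 1 pool before labelling. There is 1 array per pool, so n = 1 per group, the spread between mice is unknown and no test of a difference is possible. The Pdk4 probe set on this array did not show overexpression (234.4 against 177.0, a log2 difference of -0.39), so the pools are named by their labels.

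The liver is the main site where amino acids are broken down. Their nitrogen is gathered by transaminases and glutamate dehydrogenase, released as ammonia or passed to aspartate, and turned into urea by a cycle that starts in the mitochondria of periportal hepatocytes. The carbon skeletons enter gluconeogenesis, ketone body synthesis or the tricarboxylic acid cycle, and many of these enzymes are induced by fasting, glucagon, glucocorticoids or a protein-rich diet.

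The deposited values are linear signal intensities, scaled so that the trimmed mean is 500 on both arrays. Differences are Ad-PDK4 minus Ad-control on the log2 scale. They are centred on the median of 20151 probe sets that reached the array's median signal (a floor of 93.4 and 99.9) on both arrays. Each gene is represented by its brightest probe set unless stated. That is the one with the highest mean log2 signal over the 2 arrays, so the Ad-PDK4 signal enters the choice. As an error scale, probe sets of the same gene differed by a pooled SD of 0.35 over 4326 genes, which leaves out error shared by a whole pool or array. The centring decides the sign of small differences: poly-A spike-in controls had a median of -0.54 and hybridization controls one of -0.26 on this scale. Measured against those, the median of the members was 0.31 and 0.026 in place of -0.23. Signal at the 3' end over that at the 5' end, which follows RNA integrity, was 4.88 in the Ad-control pool and 5.46 in the Ad-PDK4 pool for beta-actin, and 0.785 and 0.806 for Gapdh, and its part in the results was not tested.

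Most members had slightly lower signals in the Ad-PDK4 pool, and few differed by much. All 54 lay above the floor on both arrays. Of these, 48 (88.9%) had a difference below 0 and 6 lay above it, where 48.4% of the 10389 named genes measured on both arrays lay below 0. The members are mostly bright: 47 of them were among the 2078 brightest genes, of which 59.8% lay below 0, and 42 of those 47 did. The median difference was -0.23 over the members, against 0.015 over all 10389 genes and -0.058 over the brightest ones. Fitting the trend with signal by loess left 43 of 54 members below 0 and a median of -0.18, against a median of 0.022 over all genes. The share of all genes below 0 was not computed after loess. Fewer hepatocytes and less RNA of these genes per hepatocyte cannot be told apart in pooled tissue.

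Large differences were no more frequent than in the array as a whole. Hal and Cth were at least 1.5-fold lower, 2 of 54 members (3.70%), against 5.20% of all genes and 2.84% of the brightest. Shmt1 was the only member at least 1.5-fold higher on its brightest probe set (1.85%), against 9.21% of all genes and 2.89% of the brightest. Another Shmt1 probe set, brighter than that one in the Ad-control pool, was level (0.023). A threshold of 1.3-fold was passed by 13 members on the lower side (24.1%), against 12.8% of all genes and 9.91% of the brightest. On the higher side it was passed by 2 members (3.70%), against 17.9% and 6.30%. For 39 members the difference was within the probe set SD. The share of all genes within it was not computed. Differences of the 2078 brightest genes had an SD of 0.345 themselves, so lying within that scale is common among bright genes.

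**Figure D1:**
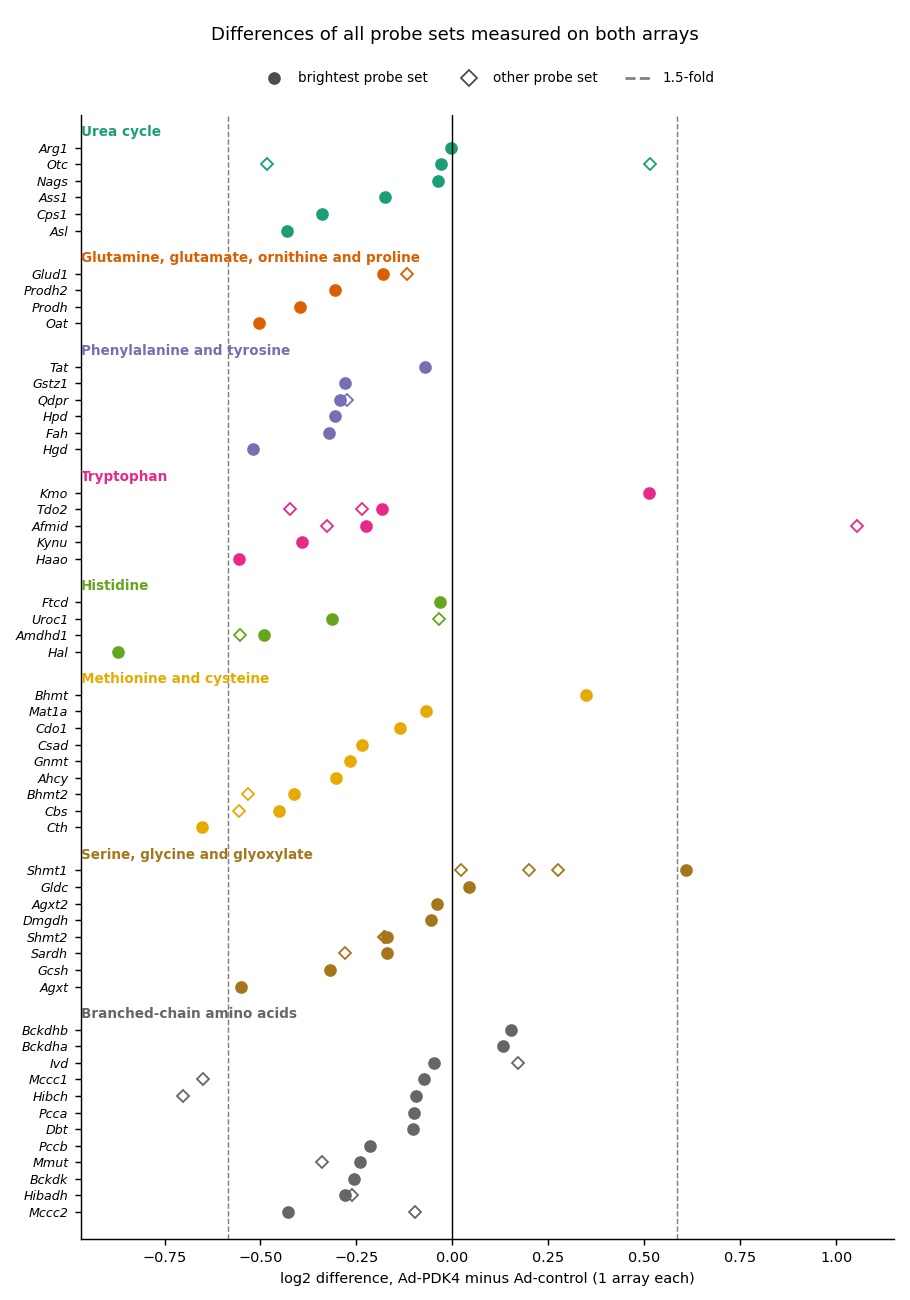
The x axis gives the log2 difference (Ad-PDK4 over Ad-control) for each probe set of each member measured on both arrays, with filled circles for the brightest probe set, open diamonds for the others and dashed lines at 1.5-fold. Most points sit between 0 and the lower dashed line, with Hal and Cth to the left of that line, as are the second probe sets of Mccc1 and Hibch, and 1 of 4 probe sets of Shmt1 and a dim one of Afmid to the right of the upper one.

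Other probe sets of the same genes pointed the same way in most cases. Of 78 member probe sets measured on both arrays, 66 (84.6%) were below 0, against 49.8% of all named probe sets. Of 18 members with more than 1 such probe set, 14 (77.8%) had all of them below 0, where 25.6% of 4326 genes did. Only Shmt1 had all above 0, and Otc, Afmid and Ivd had probe sets on both sides. The other 36 members rested on a single measured probe set. The 49.8% and 25.6% cover probe sets of every signal above the floor. Shares among probe sets as bright as the members' were not computed.

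Histidine breakdown had a median of -0.40 over 4 genes, the lowest of the groups on the brightest probe sets. It was -0.26 without _x_at and _s_at probe sets and -0.35 with the median of each gene's probe sets, and was then not the lowest. Hal, histidine ammonia-lyase, takes the first step by removing ammonia from histidine to give urocanate. Its only probe set gave 7942 in the Ad-control pool and 4299 in the Ad-PDK4 pool, a difference of -0.87 (1.83-fold lower), the lowest of all 54 members. Amdhd1, the imidazolonepropionase of the third step, gave 5753 and 4051, a difference of -0.49, and its other probe set gave -0.55. Uroc1, the urocanate hydratase between them, differed by -0.31 (9504 against 7570), and a dim second probe set by -0.035. Ftcd, the folate-dependent enzyme that ends the pathway, was level, with 9140 and 8854 (-0.031). The order of the group followed that of the pathway only in part, with the lowest value at the entry and the highest at the exit.

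The promoters of Hal and Haao, the lowest member and the next but one, are shown as the 250 bases before the transcription start in RefSeq (GRCm38.p6), 5' to 3' on the gene's strand, at chr10:93488518-93488767 (plus strand) for Hal and chr17:83846791-83847040 (minus strand) for Haao. Capitals mark matches on either strand to TATAAA (the TATA box), to CCAAT (the CCAAT box), to TGACGTCA (the cyclic AMP response element), to TGACG (its core, which lies within it) or to TGTTCT (the core of a glucocorticoid receptor site).
Hal: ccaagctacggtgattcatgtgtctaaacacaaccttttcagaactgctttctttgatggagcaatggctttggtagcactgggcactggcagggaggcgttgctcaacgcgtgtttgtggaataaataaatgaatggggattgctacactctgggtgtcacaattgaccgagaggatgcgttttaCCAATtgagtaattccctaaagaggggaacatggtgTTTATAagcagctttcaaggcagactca
Haao: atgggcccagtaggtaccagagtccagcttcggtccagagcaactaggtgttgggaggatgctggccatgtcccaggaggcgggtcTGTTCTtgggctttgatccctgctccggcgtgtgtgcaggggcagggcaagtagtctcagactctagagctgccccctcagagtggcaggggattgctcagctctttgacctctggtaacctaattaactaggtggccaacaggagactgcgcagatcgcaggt

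The Hal window held TATAAA, read on the minus strand, 28 to 23 bases before the start and CCAAT 64 to 60 bases before it. The Haao window held TGTTCT 164 to 159 bases before the start. Among 32851 promoter windows of this length, 12.4% held TATAAA, 33.8% CCAAT, 1.55% TGACGTCA, 17.8% TGACG and 16.1% TGTTCT. Of 50 windows of 45 members, 7 held TATAAA, 26 CCAAT, 0 TGACGTCA, 5 TGACG and 5 TGTTCT. These are matches of letters and were not tested for binding.

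The enzymes around glutamate, ornithine and proline had a median of -0.35, with all 4 members below 0. Oat, ornithine aminotransferase, which links ornithine to glutamate and proline, gave 21323 against 14876, a difference of -0.50. Prodh, the proline dehydrogenase, differed by -0.40 (3580 against 2689), and Prodh2, its hydroxyproline counterpart, by -0.31 (1804 against 1444). Glud1, the glutamate dehydrogenase that frees ammonia in mitochondria, was the highest of the group at -0.18 (33333 against 29131), and its other probe set gave -0.12.

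In phenylalanine and tyrosine breakdown, all 6 members lay below 0, with a median of -0.30. Hgd, homogentisate dioxygenase, which opens the ring, was the lowest at -0.52 (19457 against 13448). The steps on either side of it differed by similar amounts. Hpd, which makes homogentisate, gave 51409 and 41192 (-0.31), Gstz1, the maleylacetoacetate isomerase, 16386 and 13359 (-0.28), and Fah, fumarylacetoacetase, 17965 and 14228 (-0.32). Qdpr, which regenerates the tetrahydrobiopterin used to hydroxylate phenylalanine, differed by -0.29 (34170 against 27608), and by -0.28 on its other probe set. Tat, the tyrosine aminotransferase that starts tyrosine breakdown and is a classic glucocorticoid-induced liver gene, was the highest, with 22965 and 21622 (-0.072). The entry enzyme was thus close to level while the 4 enzymes after it were lower, each by less than 1.5-fold. Of these, Hpd, Gstz1 and Fah lay within the probe set SD, each on a single measured probe set.

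**Figure D2:**
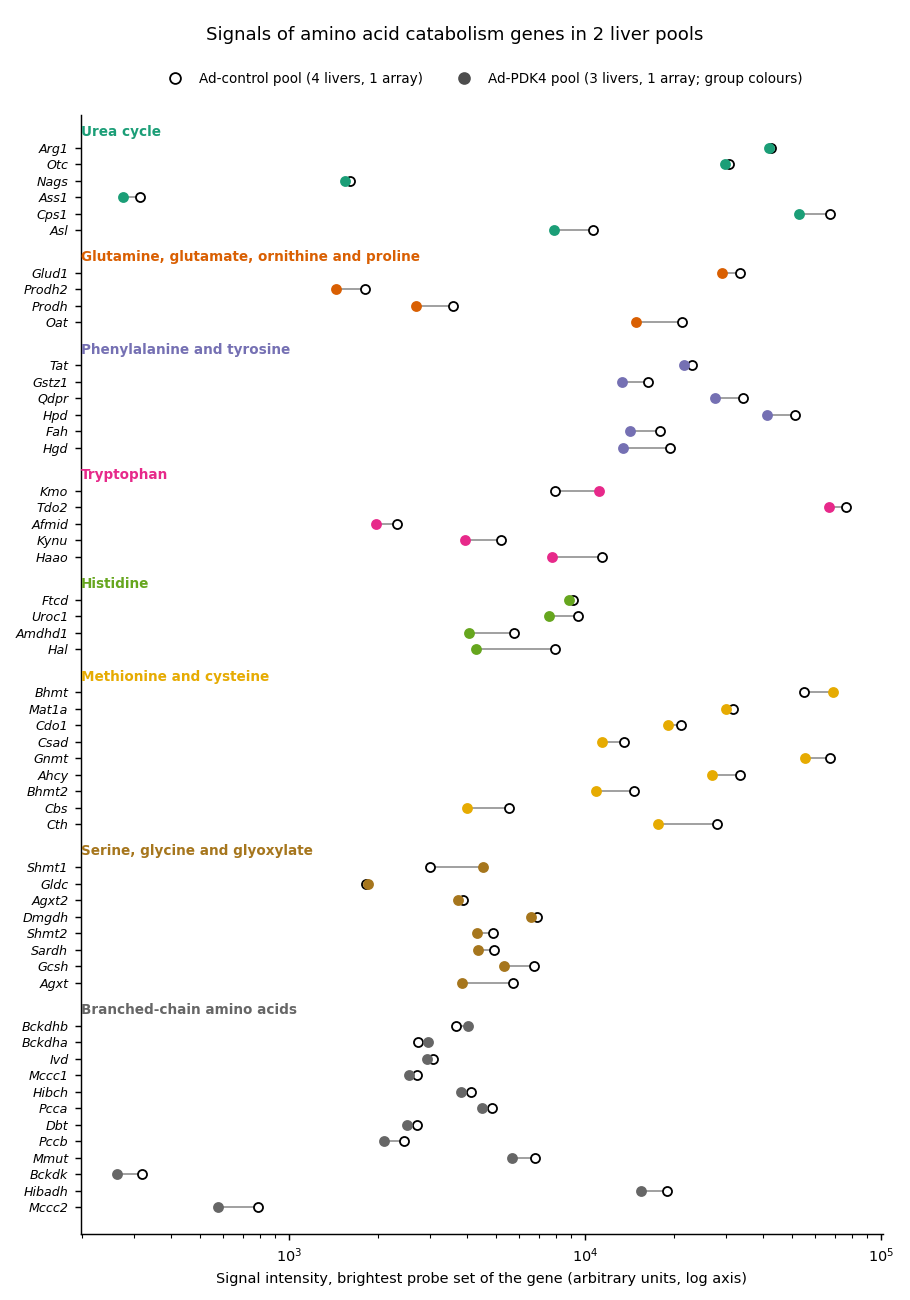
Signal intensity (arbitrary units, log axis) of the brightest probe set of each member, with open circles for the Ad-control pool and filled circles for the Ad-PDK4 pool, in the 8 groups. The filled circle lies left of the open one for most genes, and clearly right of it for Kmo, Bhmt and Shmt1.

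Tryptophan breakdown held members on both sides. Kmo, the kynurenine 3-monooxygenase, gave 7933 in the Ad-control pool and 11199 in the Ad-PDK4 pool, a difference of 0.51, the second highest of all members. Its neighbours in the pathway were lower. Kynu, kynureninase, gave 5211 and 3933 (-0.39), and Haao, the 3-hydroxyanthranilate dioxygenase after Kynu, gave 11465 and 7722 (-0.56). Tdo2, the entry enzyme tryptophan dioxygenase, differed by -0.18 on its brightest probe set (76467 against 66718) and by -0.23 and -0.42 on the others. Afmid, the formamidase of the second step, differed by -0.23 and -0.33 on its brighter probe sets, but a dim one gave 1.05 (158.9 against 326.8), so its probe sets disagree. The group median was -0.23.

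Methionine and cysteine metabolism had a median of -0.27, with 8 of 9 members below 0. Cth, cystathionine gamma-lyase, which releases cysteine in the last step of transsulfuration, gave 27996 and 17641, a difference of -0.65 (1.57-fold lower). With loess centring it was at -0.56 and short of 1.5-fold. Cbs, which makes its substrate cystathionine from homocysteine, gave 5528 and 4001 (-0.45), with -0.56 on its other probe set. Both enzymes of transsulfuration were therefore lower in the Ad-PDK4 pool. The enzymes that lead from cysteine to taurine were nearer to level: Cdo1, cysteine dioxygenase, differed by -0.14 (21204 against 19108) and Csad, the decarboxylase of taurine synthesis, by -0.23 (13556 against 11408).

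The methylation cycle that feeds transsulfuration was split. Mat1a, which makes S-adenosylmethionine, was near level (31763 against 29998, -0.068). Gnmt, the glycine methyltransferase that uses it, gave 67367 and 55447 (-0.27), and Ahcy, which splits S-adenosylhomocysteine into homocysteine, 33519 and 26872 (-0.30). The related methyltransferases that turn homocysteine back to methionine differed in sign. Bhmt, which uses betaine, gave 54870 and 69150, a difference of 0.35 on its only probe set. Bhmt2, its paralog that uses S-methylmethionine, gave 14603 and 10868 (-0.41), and -0.53 on its other probe set.

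Serine, glycine and glyoxylate enzymes had a median of -0.11 and the highest member. Shmt1, the cytosolic serine hydroxymethyltransferase, gave 3010 in the Ad-control pool and 4545 in the Ad-PDK4 pool, a difference of 0.61 (1.53-fold higher). The other 3 probe sets of Shmt1 gave 0.023, 0.20 and 0.27, all within the probe set SD, and the median over all 4 was 0.24. The one at 0.023, the brightest in the Ad-control pool, was level (3642 against 3665). The 1.5-fold size therefore rests on 1 probe set. Shmt2, the mitochondrial form, differed by -0.17 on its brightest probe set (4902 against 4315) and by -0.18 on 2 others. A further _x_at probe set of Shmt2, a kind that can match several transcripts, gave 65.4, under the floor, against 602.9, at least 6.52-fold higher. The glycine cleavage proteins Gldc (0.042) and Gcsh (-0.32) lay apart.

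Agxt, the alanine-glyoxylate aminotransferase that clears glyoxylate, was the lowest of this group, with 5702 and 3857 (-0.55). Agxt2, a mitochondrial aminotransferase of the same name but another family, was level (3865 against 3720, -0.041). Dmgdh and Sardh, which take methyl groups from dimethylglycine and sarcosine, differed by -0.055 and -0.17.

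All 6 urea cycle members lay below 0, but 3 of them by almost nothing, and the group median was -0.11. Asl, argininosuccinate lyase, gave 10695 and 7859 (-0.43). Cps1, the mitochondrial carbamoyl phosphate synthetase that commits ammonia to the cycle, gave 67433 and 52727 (-0.34). Arg1, the arginase that releases urea, was level at 42429 and 41909 (-0.0032), as was Nags, which makes the activator of Cps1, at 1608 and 1552 (-0.037). Ass1, argininosuccinate synthetase, was read by 1 dim probe set with 313.6 and 274.7 (-0.18). Otc, ornithine transcarbamylase, has no settled direction: its brightest probe set gave 30767 and 29814 (-0.031), the next 20008 and 14183 (-0.48), and a dim one 311.0 and 439.9 (0.51).

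Branched-chain amino acid breakdown had a median of -0.10 over 12 members, with none (0) past 1.5-fold on the brightest probe set. The median was -0.24, near that of all members, when each gene was given by the median of its probe sets, and -0.16 without _x_at and _s_at probe sets. This pathway is governed by the branched-chain ketoacid dehydrogenase, a complex that resembles pyruvate dehydrogenase and is likewise inactivated by its own kinase. The E1 subunits Bckdha (2721 against 2951, 0.13) and Bckdhb (3664 against 4029, 0.15) lay just above 0, and the E2 subunit Dbt just below (2716 against 2503, -0.10). Bckdk, the kinase, differed by -0.26 on a dim probe set (318.4 against 263.7). None of the 4 went beyond the probe set SD.

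Among the enzymes after the complex, Mccc2, a subunit of methylcrotonyl-CoA carboxylase of leucine breakdown, was the lowest at -0.43 (786.0 against 578.3). A second probe set of Mccc2 gave -0.096 and another was under the floor in the Ad-PDK4 pool only (269.3 against 68.0, at least 2.67-fold lower). Mccc1, the partner subunit, gave -0.073, and -0.65 on a dimmer probe set. Hibch, of valine breakdown, showed the same pattern, with -0.095 and -0.70, while the next enzyme Hibadh gave -0.28 and -0.26. Pcca (-0.099) and Pccb (-0.21), the propionyl-CoA carboxylase subunits, and Mmut (-0.24 and -0.34), the mutase after them, were slightly lower. Ivd, the isovaleryl-CoA dehydrogenase of leucine breakdown, gave -0.049 and 0.17 on its probe sets.

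**Figure D3:**
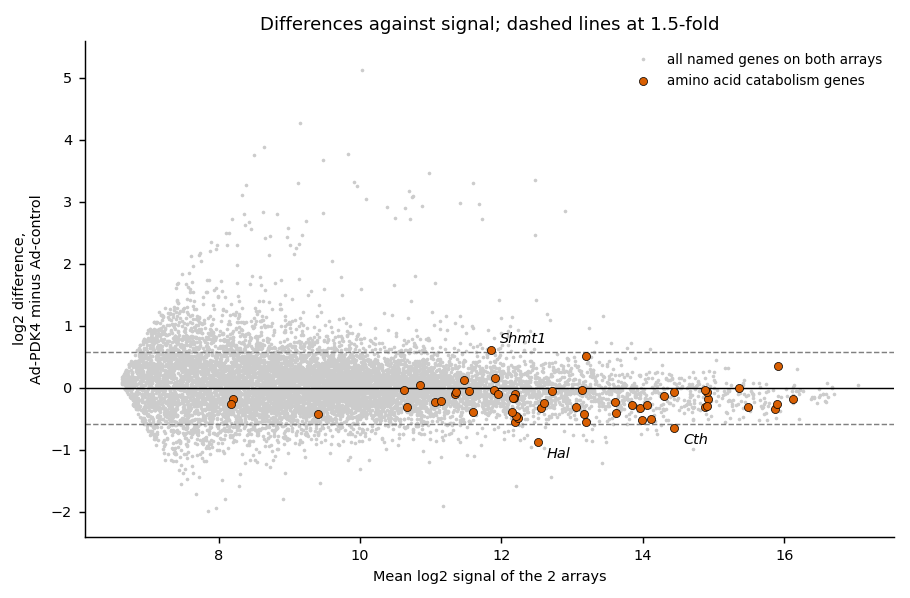
The log2 difference of each of 10389 named genes measured on both arrays (grey) is plotted against its mean log2 signal, with the 54 members in orange and dashed lines at 1.5-fold. The members lie toward high signals, where the grey points spread less, and mostly below the line at 0.

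The ranges of the 8 groups overlapped. The group medians ran from -0.40 (histidine) through -0.35 (glutamate, ornithine and proline), -0.30 (phenylalanine and tyrosine), -0.27 (methionine and cysteine) and -0.23 (tryptophan) to -0.11 (serine and glycine), -0.11 (urea cycle) and -0.10 (branched-chain). With 1 array per group these differences between groups were not tested. The order also changed with the choice of probe sets, at both ends: without _x_at and _s_at probe sets histidine was at -0.26 and branched-chain at -0.16, and with the median of each gene's probe sets they were at -0.35 and -0.24. It changed with the centring too. With loess, tryptophan (-0.21) lay below phenylalanine and tyrosine (-0.20) and methionine and cysteine (-0.16). With quantile normalization these were at -0.21, -0.18 and -0.13.

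Other genes of amino acid metabolism, dim ones among them, spread more widely than the members. Over all genes measured on both arrays, the SD of the differences was 0.534 for the 2078 dimmest and 0.345 for the 2078 brightest. The spread of the 2 lists at matched signal was not compared. Of 73 listed, 65 had a named probe set and 58 were measured on both arrays, with a median of -0.12. Of these 58, 38 lay below 0, against 48.4% of all genes and 59.8% of the brightest. Among the 58, 4 were at least 1.5-fold lower (against 5.20% of all genes) and 3 at least 1.5-fold higher (against 9.21%). The lowest were Mmab, a cobalamin adenosyltransferase (311.2 against 150.7, -1.03), Suox, the sulfite oxidase at the end of cysteine breakdown (3105 against 1721, -0.84), and Gch1, the first enzyme of tetrahydrobiopterin synthesis (9662 against 5930, -0.69). The highest were Phgdh, the first enzyme of serine synthesis (101.5 against 392.3, 1.97), Mthfd2, a mitochondrial folate enzyme (132.2 against 382.9, 1.55), and Tha1, threonine aldolase (101.4 against 169.9, 0.76). Their Ad-control signals were just above the floor. With the floor at the 70th percentile Phgdh and Mthfd2 had only bounds, at least 1.41-fold and 1.37-fold higher, Mmab had one of at least 1.05-fold lower, and Tha1 was under the floor on both arrays.

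**Figure D4:**
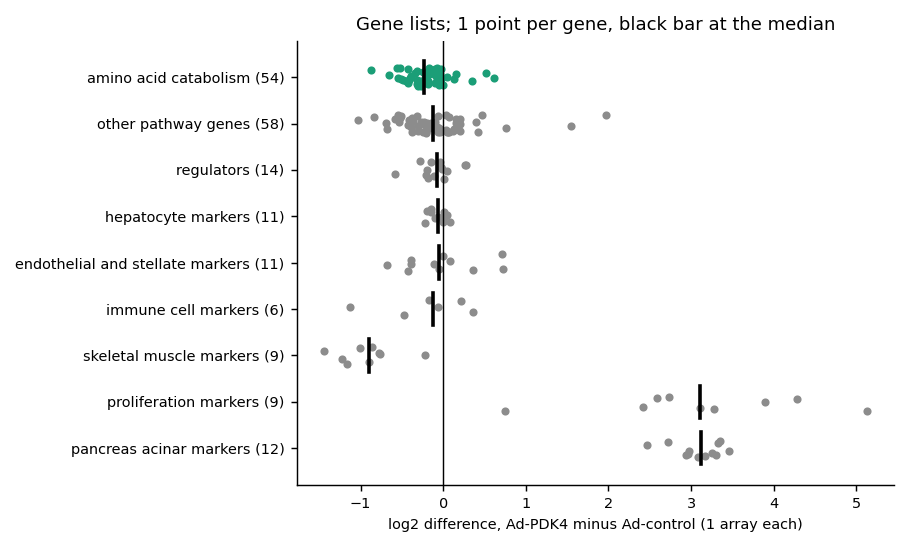
Each point is the log2 difference (Ad-PDK4 over Ad-control) of 1 gene measured on both arrays, with the number of genes per list in brackets and a black bar at the median. The 54 members (green) lie around -0.23, hepatocyte markers around -0.057, and acinar pancreas and proliferation markers around 3.12 and 3.11.

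The tissue label was checked with marker lists. The 11 hepatocyte markers measured, such as Alb and Ttr, had signals from 35534 to 110783 and lay within 1.5-fold, with differences from -0.22 to 0.079 and a median of -0.057. Their summed signal was 860152 and 821770, 3.06% and 3.07% of all named genes, while that of the 54 members was 872839 and 756454, 3.10% and 2.82%. Acinar pancreas markers were at least 1.5-fold higher in 12 of 12 cases, against 9.21% of all genes measured on both arrays. Their summed signal was 11762 and 94285 (0.0418% and 0.352% of all named genes). Proliferation markers were at least 1.5-fold higher in 9 of 9 measured on both arrays, against the same 9.21%. The 11 matched, with Plk1 and Aurka under the Ad-control floor, summed to 5805 and 27212. Skeletal muscle markers were at least 1.5-fold lower in 8 of 9 cases, against 5.20% of all genes. The 10 matched, with Actn3 under both floors, summed to 6255 and 3220. Immune markers summed to 2618 and 2565, with Cd3e, Cd3g, Cd79a, Itgam and Nkg7 under the floor on both arrays. Single immune markers went both ways, with Clec4f of Kupffer cells at -1.13 (277.6 against 125.9). The macrophage markers Adgre1 (688.1 against 788.4, 0.21) and Cd68 (333.3 against 425.1, 0.37) were slightly higher. Itgax, under the Ad-control floor, was at least 0.64 higher on the log2 scale. Endothelial and stellate markers summed to 7805 and 6951, with Cdh5 at -0.68 and Pecam1 and Des at 0.71 and 0.72. Cholangiocyte markers summed to 528.0 and 338.6, with Cftr, Krt7 and Sox9 under the floor. The part of these pancreas, muscle, proliferation and other marker signals in the members' differences was not tested.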

How the data were processed

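Total RNA of 2 liver pools was hybridized as biotinylated cRNA (10 ug of RNA per pool, per the labels), with 1 array each. The deposited table gives 1 linear signal intensity per probe set for 45101 probe sets. Neither the labels nor the table given here state how the authors summarised the probes or corrected background. No column was left out (0). Gene names came from GEO's platform annotation: 34945 probe sets had 1 symbol and 932 several, and the latter were not named. Of the first, 34741 matched RefSeq (GRCm38.p6) by Entrez identifier, and 0 symbols changed. The 64 control probe sets were set aside. Signals were put on the log2 scale with no pseudocount, with a floor at the 50th percentile of each array and centring on the median (a shift of -0.015). Where 1 array was under the floor, the brighter signal was set against that floor to give a bound.

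Members at least 1.5-fold apart were counted beside the same count over all genes, and no p-value was computed with 1 array per group. The number of arrays limits the precision. Every member is given with a value. Signals on both arrays were set to be given for members past 1.5-fold, the highest and lowest of each group, urea cycle enzymes and members with disagreeing probe sets, and for the 3 highest and lowest of the other lists. Signals of further members, and signals or differences of further regulators and single markers, were added after their values were seen. Only differences are given for the regulators other than Ppargc1a, for Ivd and for the brighter Afmid probe sets. Promoters were those of the 3 lowest members, where RefSeq's table held them. The members and lists were chosen with earlier results of these data known. Alternatives were other floors (30th and 70th percentile, none), other gene values, centrings, 16 added to each signal and other fold thresholds. The calculations, in Python 3.11.15 with pandas 2.3.3 and statsmodels 0.14.6 (loess span 0.3), were tested on simulated data.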

Additional observations from a re-analysis of the deposited data

How the results depend on the processing

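The direction of the members' median depended on the reference. It was -0.23, and between -0.26 and -0.15 with the other floors, gene values, no centring, loess, quantile normalization or 16 added to each signal. Centred on the hybridization controls it was 0.026, and 4 of the 8 group medians were above 0, with 37 of the members' probe sets below 0 in place of 66. Centred on the poly-A spike-in controls, the median was 0.31 and 8 probe sets were below 0. The group medians were then 0.44 (branched-chain), 0.19 (glutamine, glutamate, ornithine and proline), 0.14 (histidine), 0.28 (methionine and cysteine), 0.24 (phenylalanine and tyrosine), 0.43 (serine and glycine), 0.32 (tryptophan) and 0.44 (urea cycle). The median of all named genes was 0.56 on that scale and 0.27 with the hybridization controls. The share of all named probe sets below 0 was not computed on either scale.

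Counts of members past 1.5-fold were small and moved with single genes. The share of all genes was computed only in the main setting and at 1.3-fold, so the other counts have none beside them. On the lower side there were 2, and 3 without _x_at and _s_at probe sets. There was 1 with loess, quantile normalization or hybridization controls, 0 with poly-A controls, 13 at 1.3-fold and 0 at 2-fold. On the higher side there was 1, 0 with no floor or with the median of a gene's probe sets, 2 with quantile normalization, 3 with hybridization controls, 5 with poly-A controls, 2 at 1.3-fold and 0 at 2-fold. Hal stayed past 1.5-fold lower under the alternatives run other than poly-A centring, where it gave -0.33. With the floor at the 70th percentile 52 members were measured on both arrays. No paired analysis was possible because each group is 1 array.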

Other observations

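Regulators of these genes lay close to the array median. Of 14 measured, 0 were at least 1.5-fold lower (against 5.20% of all genes) or higher (against 9.21%). At those shares few would be met among 14 genes. The median was -0.079, and 10 lay below 0, against 48.4% of all genes. Ppargc1a, a coactivator of the fasting response, was the lowest (448.5 against 297.1, -0.58), followed by Gcgr, the glucagon receptor (-0.28), and Klf15, a factor known to drive amino acid breakdown genes (-0.21). Ctnnb1, beta-catenin (0.28), Foxo1 (0.26) and Atf4 (0.042) were the highest. Hnf4a differed by -0.18, and Nr3c1, the glucocorticoid receptor, by -0.12.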
